A study of Equus caballus with 26 samples.

Results

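The glucocorticoid receptor, encoded by *NR3C1*, is the protein through which cortisol acts on gene expression. In the absence of hormone it is held in the cytoplasm by heat shock proteins and immunophilins. Once cortisol is bound it moves to the nucleus, raises the transcription of some genes and lowers that of others, many of them inflammatory. Among the induced genes, *FKBP5* acts back on the pathway, since it encodes a chaperone partner that lowers the receptor's affinity for cortisol. *TSC22D3* (also called GILZ) and *DUSP1* (also called MKP-1) encode inhibitors of inflammatory signalling. Prolonged exercise is known to raise circulating cortisol in horses. Cortisol itself was not measured in the arrays analysed here.

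The genes were taken from a list of 10, the receptor *NR3C1* and 9 of its known targets (*FKBP5*, *TSC22D3*, *DUSP1*, *ZBTB16*, *KLF9*, *SGK1*, *DDIT4*, *IRS2* and *ANXA1*), looked up by the array's gene name or description. All 10 had a probe, out of 24415 gene names on the array. RNA from whole blood of endurance horses, collected in PAXgene tubes, was hybridised to Agilent equine arrays of 1 colour at T0 (before) or T1 (after) a competition of 160 km. In the training set, geldings 2, 32 and 41 were each measured at both times. In the validation set, 7 horses (3 females and 4 geldings) were measured at T0 and 13 other horses (3 females and 10 geldings) at T1. No validation horse thus served as its own control. The paper reports that most validation horses sampled at T0 were later eliminated from the ride, while all those sampled at T1 finished it. Which of these 7 horses finished is not given here, so that finishing and time point cannot be told apart in this set. The labels put every horse in a breed class that they do not define further, and they give no age and no treatment other than the time point. In whole blood, fewer cells of a type and less RNA per cell cannot be told apart.

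A probe here is a stretch of 50 or 60 bases to which the labelled RNA binds. The sequences below are probes of 5 of the targets, shown because each value that follows is the brightness of one such stretch and not of the whole transcript. Positions are those of the array's own annotation, which names the build EquCab1.
*FKBP5*, chr20:29084719-29084778, minus strand: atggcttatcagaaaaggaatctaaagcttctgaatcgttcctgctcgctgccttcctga
*ZBTB16*, chr7:19259125-19259184, plus strand: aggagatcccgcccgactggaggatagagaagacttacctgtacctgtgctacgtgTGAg
*KLF9*, chr23:10744774-10764924, plus strand: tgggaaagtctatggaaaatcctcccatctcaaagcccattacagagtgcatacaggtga
*ANXA1*, chr23:8360165-8360875, minus strand: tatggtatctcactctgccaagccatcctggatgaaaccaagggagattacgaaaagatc
*IRS2*, chr17:76084137-76084196, minus strand: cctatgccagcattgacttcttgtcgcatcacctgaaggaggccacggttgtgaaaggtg
The capitals in *ZBTB16* mark the stop codon that ends its reading frame. The *KLF9* probe was placed over 20151 bases of genome and the *ANXA1* probe over 711, so that both span at least 1 intron and read spliced RNA. The sequences of *FKBP5*, *ZBTB16* and *KLF9* are those of the single probe that each of these gene names had. That of *ANXA1* is the brightest of 4 probes and the one used below. That of *IRS2* is a second probe, since the brightest one, used below, has 50 bases and no position in the annotation.

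A level is the log2 signal of the brightest probe of a gene name minus the 75th percentile of its array. A level of 0 is thus the 75th percentile, and each unit is a doubling. The gene name equal to the symbol was used where there was one. For *FKBP5* and *NR3C1* a second gene name held a brighter probe, whose change is given separately. Levels of different probes were not set against each other. Changes were tested with limma across all gene names that were well above background on 3 or more of the 6 training arrays, or on 7 or more of the 20 validation arrays, with Benjamini-Hochberg adjusted p-values. The median change of all gene names was 0.03 in the training set and -0.07 in the validation set. Between 60.2% and 75.3% of the probes of an array were well above background. Precision is limited by how many arrays there were.

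The array labelled T0 of validation horse 47 stood apart from those of the other 6 validation horses at T0. Its level of *FKBP5* was 2.91, where the others lay between -0.79 and 0.56. Its levels of *TSC22D3* (4.73), *DUSP1* (4.53), *DDIT4* (4.45) and *IRS2* (1.83) also lay above all 6 and inside the range of the T1 horses. Its levels of *NR3C1* (2.14), *ZBTB16* (1.02) and *KLF9* (-5.26) did so as well, by smaller margins. For *SGK1* (2.06) and *ANXA1* (3.98) it lay inside the range of the other T0 horses. Its mean level over the neutrophil markers was 3.85 (2.33 to 2.75 in the other 6) and over the immature granule markers 0.84 (-2.11 to -0.97). The mean over its monocyte markers, 4.47, also lay above the other 6 (2.73 to 3.35), but below every T1 horse (4.67 to 5.65). Those of the T cell markers (0.17, against 0.47 to 1.49) and the NK cell markers (-0.29, against 0.23 to 1.53) lay below the other 6. Its eosinophil and basophil mean, -3.83, was nearer the other 6 (-3.72 to -3.09) than the T1 horses (-5.37 to -4.71). Its B cell mean, -0.38, lay inside the ranges of the other 6 (-0.81 to 0.72) and of the T1 horses (-2.76 to -0.28). The neutrophil, immature granule, T cell and NK cell means lay inside the T1 ranges. Whether the label of this array is right was not tested. The array was kept under its label, and validation changes of the 10 genes and counts of the gene lists are given with and without it. Horse 34 of the validation set had a T1 array scanned in a single pass, and all 431 saturated spots were on it. Leaving it out changed no call among the 10 genes.

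Of the 9 targets, 8 were over-expressed at T1 in the validation set and 6 in the training set. Both counts include *KLF9*, which was well above background on only 2 of 7 validation and 1 of 3 training arrays at T0. Its T1 arrays alone (11 of 13 and 3 of 3) were enough to meet the filter. The training call of *KLF9* depended on the processing, as described below. None of the 9 targets was under-expressed. For comparison, 44.2% of all gene names tested passed the threshold in the validation set (20.3% over-expressed and 23.9% under-expressed) and 10.3% in the training set (6.28% over-expressed and 4.03% under-expressed). The median change of the 9 targets was 1.77 in both sets. *SGK1*, a kinase that acts on ion transport, did not pass the threshold in either set, and *ZBTB16* and *ANXA1* did not pass it in the training set. The receptor gene itself rose by 0.49 in the validation set and differed by 0.45, short of the threshold, in the training set.

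**Figure D1:**
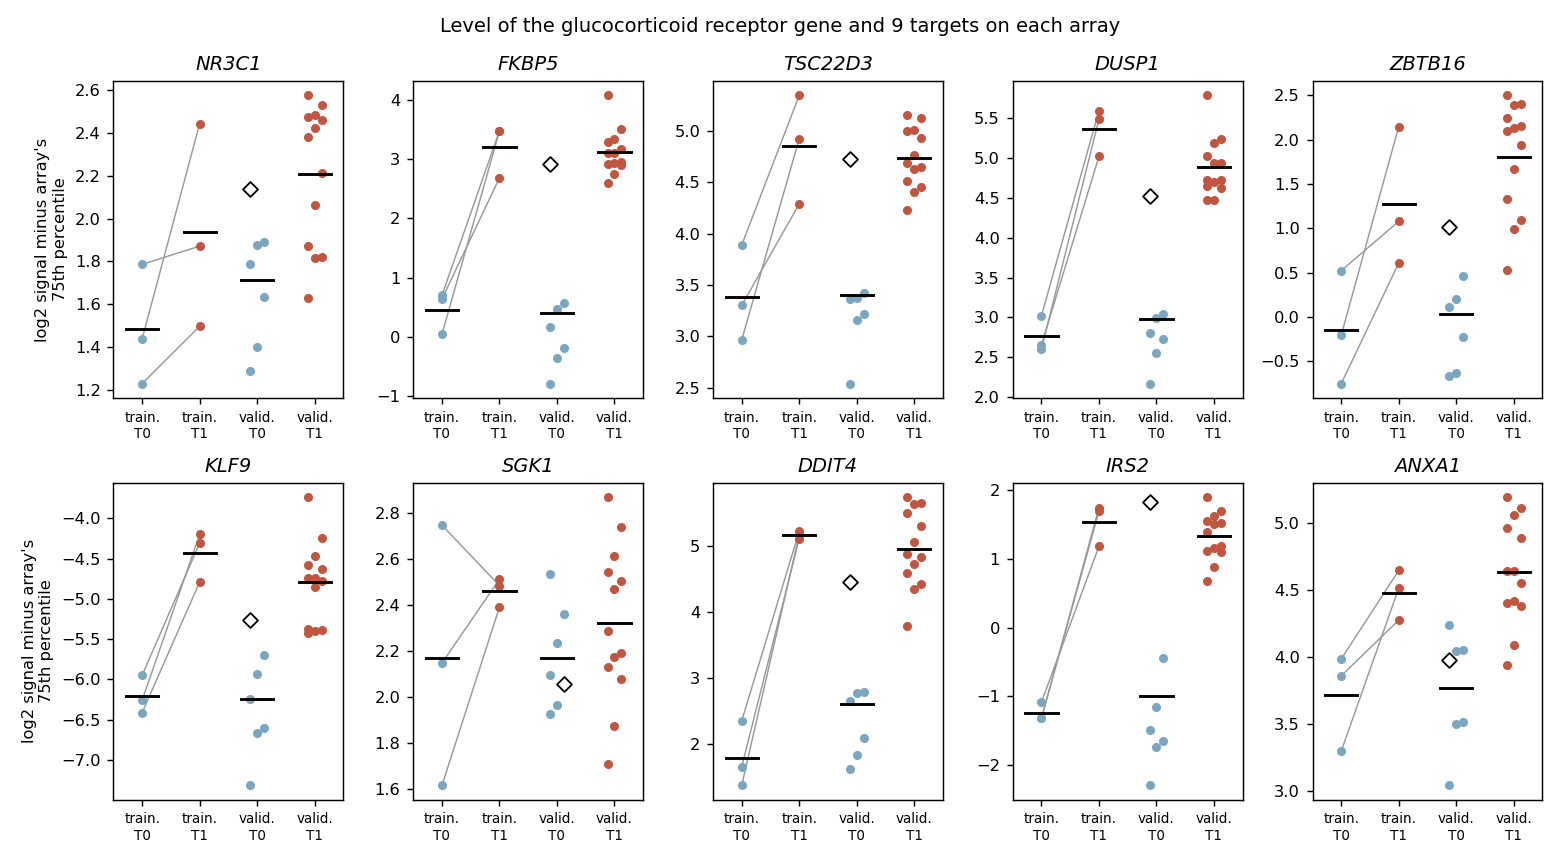
Level of each gene (log2 signal relative to the 75th percentile of its array, vertical axis) on every array of the 4 groups. Grey lines join the 2 arrays of a training horse, black bars are group means, and the open diamond is the T0 array of validation horse 47. The diamond lies among the T1 points for *FKBP5*, *TSC22D3*, *DUSP1*, *DDIT4* and *IRS2*, and the T0 and T1 points of *SGK1* overlap.

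Chaperone feedback was represented by *FKBP5*. Its level went from 0.04 to 3.47 in horse 2, from 0.70 to 3.48 in horse 32 and from 0.64 to 2.68 in horse 41. Every training horse was higher at T1 than any of them at T0. Validation levels ran from -0.79 to 2.91 at T0 (median 0.17) and from 2.59 to 4.07 at T1 (median 3.1). Of the 13 T1 horses, 10 were above every T0 horse, and all 13 were once horse 47 was left out. *FKBP5* rose 6.72-fold in the training set (log2 change 2.75, SE 0.36, adjusted p = 0.00453 in limma) and 6.63-fold in the validation set (2.73, SE 0.33, adjusted p = 5.6e-06). Without horse 47 the validation change was 3.15. The training call was lost without a filter on dim probes (adjusted p = 0.0677 in limma). Only 87 of 17405 gene names tested rose more in the validation set and 127 of 17439 in the training set. A second gene name on the array, whose pair of overlapping probes lies at chr20:29079388-29079467 beside the first, was also annotated as *FKBP5*. It rose by 3.87 (SE 0.35, adjusted p = 0.00134 in limma) in the training set and by 3.60 (SE 0.41, adjusted p = 3.33e-06) in the validation set, or 4.15 without horse 47.

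*TSC22D3* and *DUSP1* encode inhibitors of inflammatory signalling, the former of NF-kappaB and AP-1 and the latter of the MAP kinases. The level of *DUSP1* went from 2.60 to 5.49 in horse 2, from 3.02 to 5.60 in horse 32 and from 2.66 to 5.02 in horse 41. Validation levels ran from 2.17 to 4.53 at T0 (median 2.80) and from 4.47 to 5.79 at T1 (median 4.73). The groups overlapped through horse 47 alone, since the highest of the other 6 T0 horses was at 3.04. *DUSP1* rose 6.10-fold in the training set (log2 change 2.61, SE 0.32, adjusted p = 0.00353 in limma) and 3.76-fold in the validation set (1.91, SE 0.24, adjusted p = 6.41e-06; 2.17 without horse 47). Its training call was lost without a filter on dim probes (adjusted p = 0.0604).

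*TSC22D3* went from 2.96 to 4.92 in horse 2, from 3.89 to 5.35 in horse 32 and from 3.30 to 4.29 in horse 41. Its validation levels ran from 2.54 to 4.73 at T0 (median 3.36) and from 4.23 to 5.16 at T1 (median 4.68). With horse 47 left out, the highest T0 horse was at 3.42 and all 13 T1 horses were above it. The gene rose by 1.33 in the validation set (SE 0.21, adjusted p = 4.78e-05 in limma; 1.55 without horse 47), and its second probe by 1.28. The training rise was 1.47 (SE 0.34, adjusted p = 0.0314), a call that was lost under 4 of 11 alternatives. Among them were those without horse 2 (adjusted p = 0.149) or horse 32 (0.0727) and with quantile normalization (0.0567).

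*DDIT4* and *IRS2* act on growth and fuel signalling: *DDIT4* (also called REDD1) inhibits mTORC1, and *IRS2* is an adaptor of the insulin receptor. With the probes used here, *DDIT4* had the largest training change of the 10 genes, although the second gene name of *FKBP5* rose by more (3.87). Its level went from 1.66 to 5.11 in horse 2, from 1.38 to 5.17 in horse 32 and from 2.35 to 5.22 in horse 41. The T1 levels of the 3 horses thus lay within a narrow band (SD 0.06), while their T0 levels had an SD of 0.50. The validation horses ran from 1.62 to 4.45 at T0 (median 2.66) and from 3.79 to 5.74 at T1 (median 4.87). It rose 10.3-fold in the training set (log2 change 3.37, SE 0.33, adjusted p = 0.00166 in limma) and 5.12-fold in the validation set (2.36, SE 0.32, adjusted p = 1.37e-05; 2.66 without horse 47). Its 7 probes gave changes between 3.16 and 3.38 in the training set and between 2.19 and 2.37 in the validation set. They are not 7 separate measurements. One pair overlaps almost fully, and so do the others, which begin 791 to 798 bases beyond the first. With 1 probe of the pair the changes were 4.39 in horse 2, 2.32 in horse 32 and 3.40 in horse 41.

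The level of *IRS2* went from -1.32 to 1.74 in horse 2, from -1.32 to 1.69 in horse 32 and from -1.08 to 1.18 in horse 41. At T0 the validation horses ran from -2.30 to 1.83 (median -1.49) and at T1 from 0.68 to 1.90 (median 1.40). Horse 47 at T0 was above all but 1 of the T1 horses, whereas the other 6 T0 horses were at -0.44 or below. *IRS2* rose 6.86-fold in the training set (log2 change 2.78, SE 0.33, adjusted p = 0.00335 in limma) and 5.01-fold in the validation set (2.32, SE 0.37, adjusted p = 5.56e-05; 2.79 without horse 47). The second probe, whose sequence is given above, changed by 2.83 and 2.11. Without a filter on dim probes the training call of *IRS2* was lost (adjusted p = 0.0604 in limma).

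*ZBTB16* and *KLF9* encode transcription factors with zinc fingers. *ZBTB16* (also called PLZF) went from 0.52 to 1.08 in horse 2, from -0.75 to 0.61 in horse 32 and from -0.20 to 2.15 in horse 41. The size of its change thus differed more between the training horses, from 0.56 to 2.35, than that of *FKBP5*, from 2.04 to 3.43. Its validation levels ran from -0.66 to 1.02 at T0 (median 0.11) and from 0.53 to 2.50 at T1 (median 2.10). It rose by 1.77 in the validation set (SE 0.28, adjusted p = 4.95e-05 in limma; 1.93 without horse 47). The training change was 1.42 (SE 0.39, adjusted p = 0.0531), which passed under 3 of the 11 alternative settings, with adjusted p between 0.0175 and 0.193 over all of them.

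*KLF9* was dim. It was well above background on 1 of 3 training and 2 of 7 validation arrays at T0, and on 3 of 3 and 11 of 13 arrays at T1. Its levels went from -5.95 to -4.31 in horse 2, from -6.41 to -4.79 in horse 32 and from -6.26 to -4.20 in horse 41. Validation levels ran from -7.32 to -5.26 at T0 (median -6.24) and from -5.43 to -3.74 at T1 (median -4.74). *KLF9* rose by 1.77 in the training set (SE 0.32, adjusted p = 0.0144 in limma) and by 1.45 in the validation set (SE 0.26, adjusted p = 0.000156; 1.61 without horse 47). The training call was lost under 4 of the 9 alternatives that tested it, among them the one without horse 2 (adjusted p = 0.0717). With normexp background correction, which compresses dim signals, the change was 0.27 in both sets, past the threshold in the validation set (adjusted p = 0.00112) and not in the training set (adjusted p = 0.246).

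*ANXA1* and *SGK1* had the smallest differences among the targets. *ANXA1*, which encodes a phospholipid-binding protein that limits neutrophil recruitment, went from 3.86 to 4.28 in horse 2, from 3.30 to 4.51 in horse 32 and from 3.99 to 4.65 in horse 41. The validation horses ran from 3.04 to 4.24 at T0 (median 3.98) and from 3.94 to 5.19 at T1 (median 4.64), and 11 of the 13 T1 horses were above every T0 horse. It rose by 0.87 in the validation set (SE 0.19, adjusted p = 0.000941 in limma; 0.90 without horse 47), and the training change was 0.76 (SE 0.33, adjusted p = 0.159). Its 4 probes gave validation changes between 0.75 and 0.87 and training changes between 0.58 and 0.76. In horse 41, however, 2 of the 4 probes were lower at T1 (-0.22 and -0.28), so that the direction in that horse depended on the probe.

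The level of *SGK1* went from 2.74 to 2.48 in horse 2, from 1.62 to 2.39 in horse 32 and from 2.15 to 2.51 in horse 41. At T0 the validation horses ran from 1.92 to 2.53 (median 2.09) and at T1 from 1.71 to 2.87 (median 2.29). Of the 13 T1 horses, 4 were above every T0 horse, 2 were below every T0 horse and the rest lay inside the T0 range. The change was 0.29 in the training set (95% confidence interval -0.48 to 1.06, adjusted p = 0.599 in limma) and 0.15 in the validation set (-0.16 to 0.47, adjusted p = 0.438; 0.14 without horse 47). The upper bounds lie below the lower bounds of *FKBP5* (1.93 and 2.04) in the same sets.

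**Figure D2:**
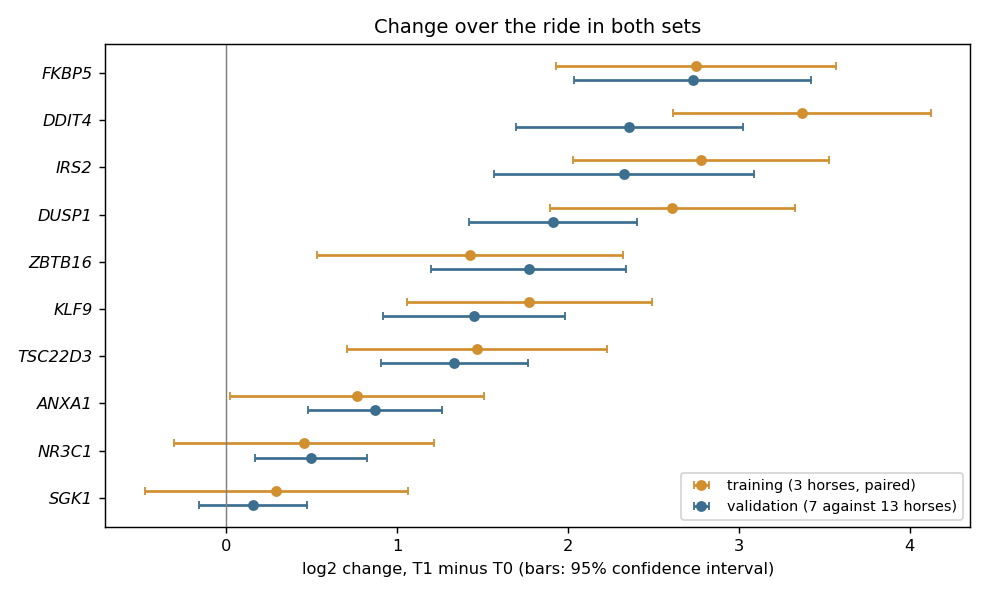
Change of each gene over the ride (log2, T1 minus T0, horizontal axis) in the training set (3 horses, paired) and the validation set (7 against 13 horses), with 95% confidence intervals of the limma fit as bars. The intervals of *FKBP5*, *DDIT4*, *IRS2* and *DUSP1* lie above 1 in both sets, and those of *SGK1* span 0 in both.

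The receptor gene *NR3C1* went from 1.23 to 1.50 in horse 2, from 1.44 to 2.44 in horse 32 and from 1.79 to 1.87 in horse 41. Horse 32 thus moved by 1.0 and horse 41 by 0.09. Validation levels ran from 1.29 to 2.14 at T0 (median 1.79) and from 1.63 to 2.57 at T1 (median 2.38), and 8 of the 13 T1 horses were above every T0 horse. The gene rose 1.41-fold in the validation set (log2 change 0.49, SE 0.16, adjusted p = 0.0143 in limma; 0.56 without horse 47). The training change was 0.45 (SE 0.34, adjusted p = 0.397). In the validation set, 3557 of 17405 gene names tested rose by more than *NR3C1*.

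The probes for the receptor did not give the same change. For a probe without a position in the annotation the difference was 0.02 in the validation set (adjusted p over probes = 0.910 in limma) and -0.17 in the training set. The 3 probes of the same gene name on chromosome 14 rose by 0.39, 0.49 and 0.32 in the validation set (adjusted p over probes at most 0.0455 in limma). The lowest of these 3, whose description names the alpha form of the receptor, lay 1147 bases beyond the first. A second gene name, described as the beta form, had 6 probes, which began 3146 to 3530 bases beyond the first. One of them, the brightest, rose by 0.65 (SE 0.15, adjusted p = 0.00192 over gene names in limma) and the other 5, which overlap each other almost fully, by 0.98 to 1.05. Without horse 47 the 4 differences of the first gene name ran from 0.04 to 0.56, and the 6 of the second from 0.77 to 1.19. The training differences of the 6 probes were 0.62 to 0.76, with no call among them (lowest adjusted p over probes = 0.120). All probes for *NR3C1* were well above background on the 26 arrays. What part of a transcript each probe reads was not tested, so that these values are not levels of alpha and beta forms.

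**Figure D3:**
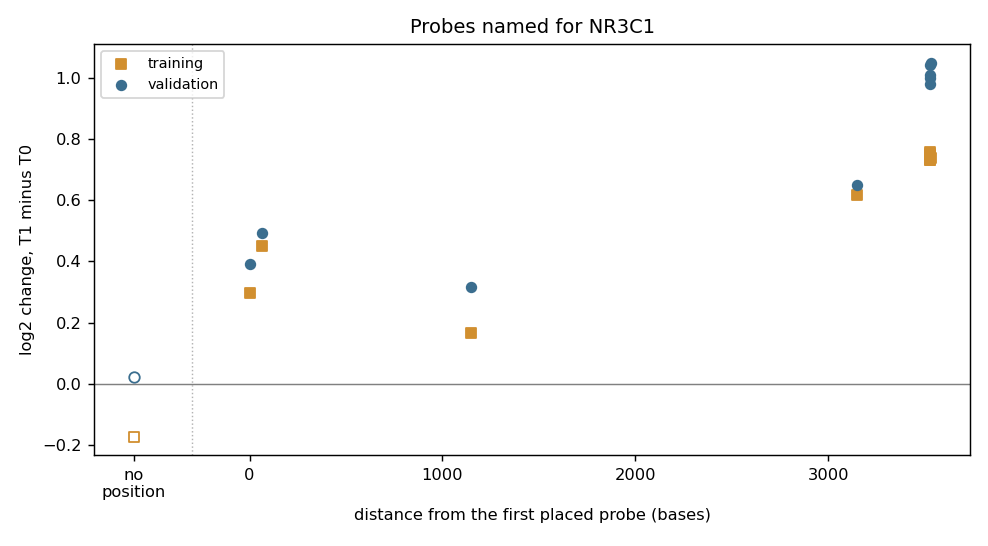
Change (log2, T1 minus T0, vertical axis) of each probe named for *NR3C1* against its distance in bases from the first placed probe. Squares are the training set, circles the validation set, and open symbols a probe without a position. Validation changes run from 0.02 for the unplaced probe to 1.05 for the farthest one.

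For none of the 10 genes did the difference between the sets pass the threshold. The largest was that of *DDIT4*, which rose by 1.01 more in the training set (95% confidence interval -0.26 to 2.28, unadjusted p = 0.114 in limma over all 26 arrays), followed by *DUSP1* (0.70, -0.25 to 1.64). For *FKBP5* the difference was 0.02, with an interval from -1.32 to 1.35, which leaves room for a difference of more than 1 in either direction. Over all 17889 gene names tested no difference passed the threshold (limma), and 99 had an unadjusted p below 0.05.

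Blood cell markers moved over the ride as well. In the validation set, 5 of 8 neutrophil markers tested, 5 of 6 immature granule markers and 4 of 5 monocyte markers were over-expressed at T1. All 8 T cell markers, 5 of 6 B cell markers, 4 of 6 NK cell markers and 4 of 5 eosinophil and basophil markers were under-expressed, and 1 NK cell marker (*NCR1*) was over-expressed. Neither of the 2 platelet markers tested passed, and 1 of 3 erythroid markers (*HBB*) was over-expressed. Over all gene names tested in this set, 20.3% were over-expressed and 23.9% under-expressed. A single over-expressed marker in a list of 3 or 6 is near that share. The mean level of the neutrophil markers ran from 2.33 to 3.85 at T0 and from 3.47 to 4.41 at T1, and that of the monocyte markers from 2.73 to 4.47 and from 4.67 to 5.65. That of the T cell markers ran from 0.17 to 1.49 at T0 and from -1.16 to 0.49 at T1. *MS4A2*, a basophil marker, was well above background on all 7 T0 arrays and on none of the 13 T1 arrays, and *SLC4A1*, of red cells, on no array. Without horse 47 these counts were unchanged, except that 3 of 4 eosinophil and basophil markers tested were under-expressed. The part of cell composition in the changes of the 10 genes was not tested.

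Scan day was compared within the validation set, where 5 days held arrays of both time points. Each such day held only 1 or 2 arrays at T0, that of horse 47 among them, and between 1 and 4 at T1. *NR3C1* and 8 of the targets were higher at T1 on all 5 days, and *SGK1* on 4 of 5. The T1 minus T0 difference within a day ran from 1.97 to 3.86 for *FKBP5*, from 1.69 to 3.17 for *DDIT4*, from 1.46 to 2.91 for *IRS2* and from 1.02 to 2.33 for *DUSP1*. That of *NR3C1* ran from 0.18 to 1.17. In the training set the T0 and T1 arrays of each horse were scanned on different days and lay on different slides. The days at T0 and T1 were 6 and 1 for horse 2, 1 and 7 for horse 32, and 8 and 6 for horse 41. The training changes thus include any difference between scan days and slides, which was not tested.

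The spread between horses was described in the validation set. For *FKBP5* the SD was 1.21 at T0 and 0.38 at T1, but 0.52 at T0 without horse 47. For *IRS2* it was 1.37 at T0, 0.62 without horse 47, and 0.35 at T1. For *ZBTB16* it was 0.60 at T0, 0.46 without horse 47, and 0.63 at T1. Horse 17 had the highest T1 level of *FKBP5* (4.07), *KLF9* (-3.74) and *IRS2* (1.90), and horse 24 the lowest of *DDIT4* (3.79) and *NR3C1* (1.63).

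How far the genes moved together between horses was described by Pearson's r of the deviations from the mean of each array's own time point, over the 20 validation arrays. These arrays share a normalization and differ in blood composition. Of the 45 pairs among the 10 genes, 38 had an r above 0, with a median of 0.32. The highest were *FKBP5* with *IRS2* (0.82) and *TSC22D3* with *DUSP1* (0.77), and the lowest *FKBP5* with *SGK1* (-0.32). These values rested in large part on horse 47. Over the other 19 arrays the median was 0.13 and the highest r was 0.55 (*FKBP5* with *KLF9*), while *FKBP5* with *IRS2* was 0.34 and *FKBP5* with *DUSP1* -0.06. *NR3C1* with *FKBP5* was 0.29 over 20 arrays and 0.02 over 19.

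Among 10871 gene names with a symbol, those with the highest r to *FKBP5* over the 20 arrays were *ATXN1* (0.89), *BCL2L15* (0.86), *PFKFB3* (0.86), *SLC2A3* (0.86) and *MAP1S* (0.84). This order rested on horse 47, and over the other 19 arrays the highest were *P2RY1* (0.79), *MIEF1* (0.74), *LBR* (0.73), *GRB10* (0.71) and *PPP3R1* (0.71). *PFKFB3* makes the activator of phosphofructokinase and *SLC2A3* is a glucose transporter. Without horse 47 the r of the first 5 was 0.66 for *ATXN1*, 0.59 for *BCL2L15*, 0.40 for *PFKFB3* (485th highest), 0.60 for *SLC2A3* and 0.68 for *MAP1S*. The lowest r over 20 arrays were those of *IRAK1BP1* (-0.83), *PEPD* (-0.83) and *PSTK* (-0.82), which were -0.57, -0.60 and -0.55 without horse 47. For *FKBP5* and its own second gene name r was 0.84 over 20 arrays and 0.34 over 19.

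Among genes that supply or remove the hormone, *HSD11B1*, which encodes the enzyme that turns inactive cortisone into cortisol inside cells, rose in both sets. Its level ran from 0.14 to 2.62 at T0 (median 1.11) and from 2.46 to 4.46 at T1 (median 3.55) in the validation set, where 12 of the 13 T1 horses were above every T0 horse. It rose by 2.41 there (SE 0.29, adjusted p = 4.97e-06 in limma; 2.67 without horse 47) and by 2.82 in the training set (SE 0.36, adjusted p = 0.00431), in all 3 horses. The training call was lost without a filter on dim probes (adjusted p = 0.0677). *H6PD*, which supplies that enzyme with NADPH, rose by 1.38 in the validation set (SE 0.37, adjusted p = 0.00429), although it was well above background on only 1 of 7 arrays at T0 and 9 of 13 at T1. The call was lost with scan day as a block (change 0.98, adjusted p = 0.0836), and the change was 0.17 with the series values. In the training set its change did not pass (adjusted p = 0.0518) under this or any of the 7 alternatives that tested it. No training array at T0 measured it well above background, and its 3 T1 arrays alone met the filter. The training log2 change of *H6PD* was 1.83 in these values and 0.25 with normexp and quantile normalization, so that its size is not known. *ABCB1*, an efflux pump that exports glucocorticoids, fell by 1.02 in the validation set (adjusted p = 0.00147), and its training change was -0.40 (adjusted p = 0.446). With the series values the validation change of *ABCB1* was -0.17 (adjusted p = 0.0124). The mineralocorticoid receptor *NR3C2*, which also binds cortisol, differed by -0.52 in the validation set, short of the threshold (adjusted p = 0.0720). *HSD11B2* and *SERPINA6*, which encode the enzyme that inactivates cortisol and the cortisol carrier of plasma, were too dim to be tested.

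Of 10 tested chaperones that hold the receptor ready for hormone, 3 rose and 1 fell in the validation set (4 and 1 without horse 47), with a median change of 0.10. The share called, 4 of 10, was near the 44.2% of all gene names. *HSPA1A* rose by 0.80 (SE 0.30, adjusted p = 0.0321 in limma), *HSP90AA1* by 0.68 (adjusted p = 0.0430) and *HSPA4* by 0.37 (adjusted p = 0.0316), while *HSP90AB1*, the constitutive form of HSP90, fell by 0.44 (adjusted p = 0.0148; -0.72 with quantile normalization). None of the 3 rises passed with quantile normalization, with or without normexp correction, with the deposited series values or with scan day as a block. In the training set 1 of the 10, *HSPA1A*, passed (1.51, adjusted p = 0.0475 in limma), where 10.3% of all gene names did. That call held under 4 of 11 alternatives. The median change of the list there was 0.45, with 9 of the 10 higher at T1. *HSP90AA1* changed by 1.11 in that set, short of the threshold (adjusted p = 0.0530 in limma). *HSPA1A* has a near-identical gene copy, whose RNA its probe may also bind.

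Of 9 coregulators tested, 3 rose and 1 fell in the validation set, with and without horse 47, and 2 rose in the training set. The 4 of 9 called in the validation set were near the 44.2% of all gene names, and in the training set 6.28% of all gene names were over-expressed. *EP300*, a histone acetyltransferase, rose by 1.47 in the validation set (SE 0.20, adjusted p = 1.53e-05 in limma) and by 1.64 in the training set (adjusted p = 0.0184). Its close relative *CREBBP* rose by 0.93 (adjusted p = 0.000800) and 1.19 (adjusted p = 0.0444). The training call of *CREBBP* held under 6 of 11 alternatives (highest adjusted p = 0.171) and that of *EP300* under 8 of 11 (highest adjusted p = 0.119). *NCOA2*, a coactivator that binds the hormone-bound receptor, rose by 0.97 in the validation set (adjusted p = 0.00401), and *CARM1*, an arginine methyltransferase, fell by 0.88 (adjusted p = 0.00239). With the series values the change of *CARM1* was -0.12 (adjusted p = 0.0498). The corepressor *NCOR1* and the coactivator *NCOA1* did not pass in either set. The median change of the list was 0.06.

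A wider list of genes that glucocorticoids are known to induce held 26 tested in the validation set. Of these, 13 rose, 1 fell (*IL7R*, also a T cell marker) and 12 did not pass, with a median change of 0.67. Without horse 47, 14 rose, with a median of 0.84. Over all gene names 20.3% were over-expressed and 23.9% under-expressed. Among the same genes, 12 of 26 rose in the training set and none fell, with a median of 0.93, against 6.28% of all gene names over-expressed there. The interleukin-1 decoy receptor *IL1R2* rose by 6.13 in the validation set (SE 0.62, adjusted p = 1.24e-06 in limma), the haemoglobin scavenger receptor *CD163*, also a monocyte marker, by 4.19 (SE 0.47), glutamine synthetase *GLUL* by 3.59 (SE 0.35) and the transcription factor *CEBPB* by 2.37 (SE 0.27). For *CD163*, *GLUL* and *CEBPB* all 13 T1 horses were above every T0 horse, horse 47 included. The other 9 that rose (*PER1*, *NFKBIA*, *BCL6*, *FOXO3*, *RGS2*, *GADD45A*, *SLC2A3*, *LCN2* and *MERTK*) changed by 0.65 to 2.23, *LCN2* being also an immature granule marker. Among those that did not pass were *TNFAIP3* (-0.32), *CXCR4* (0.30), *CDKN1A* (-0.23) and the metallothionein *MT2A* (-0.48).

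Of 16 genes that glucocorticoids are known to repress, 5 were too dim to be tested in the validation set. Of the 11 tested, 1 rose, 2 fell and 8 did not pass, with a median change of 0.05 and the same counts without horse 47. That is 3 of 11 called, where 44.2% of all gene names were. The neutrophil chemokine *CXCL8* rose by 3.44 in the validation set (SE 0.55, adjusted p = 5.98e-05 in limma) and by 3.62 in the training set (adjusted p = 0.00393). With normexp and quantile normalization both changes were smaller (1.95 and 1.94), and the training call was lost without a filter on dim probes (adjusted p = 0.0677). The T cell chemokine *CCL5* fell by 0.99 (adjusted p = 0.00881) and *TNF* by 0.87 (adjusted p = 0.0218) in the validation set, with training changes of -1.19 (adjusted p = 0.0592) and -0.49 (adjusted p = 0.454). The call of *TNF* was lost with scan day as a block (-0.48, adjusted p = 0.201). The changes of *IL1B* (0.05), *PTGS2* (-0.03) and *NFKB1* (0.14) did not pass.

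**Figure D4:**
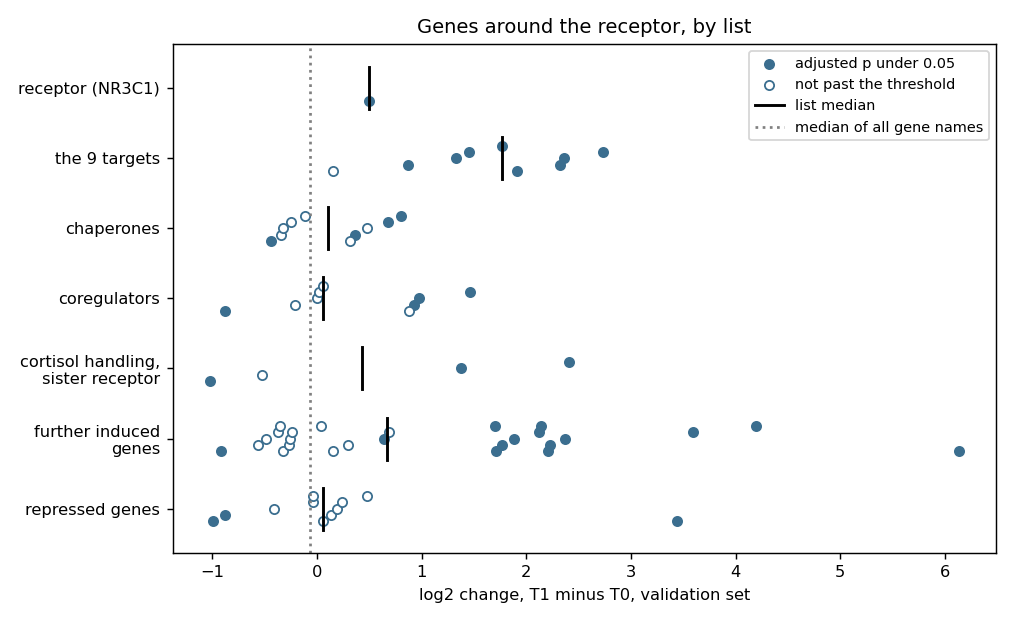
Change over the ride in the validation set (log2, T1 minus T0, horizontal axis) of every tested gene of each list. Filled points passed the threshold, black bars are list medians and the dotted line is the median of all gene names (-0.07). The 9 targets have a median of 1.77 and the chaperones, coregulators and repressed genes medians between 0.05 and 0.10.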

How the data were processed

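Whole-blood RNA of 23 horses was measured on 26 arrays, each hybridised by the authors to a 1-colour Agilent equine design. The deposited scanner files hold an intensity per spot, made with Feature Extraction 10.7.3.1, which subtracted background and did not normalize between arrays. The authors' series table holds log2 values whose order within each array follows the scanner signal minus background (rank correlation at least 0.998), and it was used as an alternative only. Of 45220 spots per array, 43803 were not controls. Here, control and outlier-marked spots were left out, repeated spots of a probe were averaged, log2 processed signals were set relative to their array's 75th percentile, and the brightest probe stood for a gene name. Symbols came from the array's annotation, the reference gene table or the study's additional files. The 5 targets found by description or reference were *TSC22D3*, *DUSP1*, *KLF9*, *SGK1* and *DDIT4*.

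T1 was compared with T0 in limma 3.58.1 (R 4.3.3), with the horse as a block in the training set and none in the validation set. The labels give both arrays of a training horse the same animal number, and deviations of these arrays from their group means correlated with r of -0.00866, 0.213 and 0.191. The difference between the sets was fitted over 26 arrays, in which horse was a random effect. The threshold was an adjusted p of 0.05. In simulated data a change of 2 on the log2 scale was recovered in 95% of genes in both sets. A change of 1 was recovered in 12% in the training and 61% in the validation set. The simulation changed a far smaller share of the genes than was called in the real data, which makes the adjusted threshold stricter. These percentages therefore do not give the power of the tests above.

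The genes, the lists and the tests were chosen with earlier results of these data known. Named are the 10 genes, up to 4 genes of each further list with the largest change past the threshold in the validation set, and the gene names most and least like *FKBP5*. Further genes were named to complete a list's counts. The alternatives changed background correction, normalization, source of the values, filter, probe summary, arrays in the fit, block, scan day, slide, sex, and single horses. After seeing the data, the likeness to *FKBP5*, the list and marker counts and the *NR3C1* probes were also computed without validation horse 47, and the list counts without horse 34. Tables were handled with pandas 2.3.3 in Python 3.11.15, and plots were drawn with matplotlib 3.10.9.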

Additional observations from a re-analysis of the deposited data

Results flagged for a closer look

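In 4 of the 10 genes, the T0 level of validation horse 47 lay farther from its nearest neighbour, relative to the range of the 7 horses at T0, than Dixon's 95% critical value allows. These were *FKBP5* (level 2.91), *TSC22D3* (4.73), *DUSP1* (4.53) and *DDIT4* (4.45), all at the high end. For *IRS2* the gap was 0.550 of the range, just short of the critical value of 0.568. Chance alone marks about 1 in 20 groups, 10 such groups of 7 horses were examined, and the 4 values come from a single array. The validation set alone was examined in this way at T0, since the other groups held 3 or 13 arrays. For none of the 10 genes did the difference in change between the training and validation sets pass the threshold.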

How the results depend on the processing

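In the validation set, 9 of the 10 genes passed under every alternative except a filter on every array, under which *KLF9* was not tested and 8 passed, and *SGK1* passed under none. In the training set 6 passed. Without a filter on dim probes only 1 (*DDIT4*) did, and with 1 horse left out between 4 and 6 did. The count of all gene names called in the training set was 1799. It was 62 without a filter, 2842 with a filter on every array, 2931 with all 26 arrays in a single fit, and between 239 and 3164 with 1 horse left out (239 without horse 2, 694 without horse 32 and 3164 without horse 41). The share of higher levels among these calls fell from 60.9% to 48.2% with normexp and quantile normalization, 49.6% with quantile normalization and 47.7% with the series values. Without the replicate block for the paired horses, 1795 gene names and the same number of the 10 genes, 6, passed. The difference of *FKBP5* between the sets, 0.02, became -0.014 with normexp and -0.011 with the series values, and that of *KLF9* -0.0090 with the series values, none of them past the threshold. The cause was not tested.

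Of the chaperones that rose in the validation set, 3 became 0 with normexp, quantile normalization, the series values, scan day or sex as a term, and 1 with all arrays or with slide as a random block. Their training count of 1 became 0 with quantile normalization, without a filter and without the replicate block, 2 with normexp or all arrays, 3 with a filter on every array and between 0 and 2 with 1 horse left out, and 1 fell with normexp or the series values. The coregulators that rose in the training set, 2, became 1 with quantile normalization, 0 without a filter, and between 0 and 2 with 1 horse left out. In the validation set no coregulator fell with a filter on every array. The cortisol handling genes that rose became 0 in the training set without a filter, and 1 in the validation set with a filter on every array or scan day, and those that fell became 0 with the filter on every array and 2 with the mean of probes. With 1 training horse left out, between 0 and 1 fell. Of the further induced genes, 2 rose in the training set without a filter and between 6 and 13 with 1 horse left out, where between 0 and 1 fell, and 2 fell in the validation set with quantile normalization or scan day. Of the repressed genes, 0 rose in the training set without a filter, and 1 fell there with normexp, quantile normalization, the series values or a filter on every array and 2 with the mean of probes. In the validation set 1 fell with scan day.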
